A study of Mus musculus with 12 samples.

Results

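The comparison described here set all cells carrying a netrin-1 transgene against cells carrying the empty vector, and asked which transcripts changed with every transgene. All 12 libraries of the series entered it, 9 with a transgene and 3 without. The cells were CGR8, a male mouse embryonic stem cell line, grown in serum with leukemia inhibitory factor (LIF), and all 4 groups had been stably transfected with the ppy-cagg-ires-puro vector, whose name gives a CAGG promoter and a puromycin resistance gene behind an internal ribosome entry site. The vector encoded wild-type netrin-1 (netrin-1 WT, n = 3), the point mutant named for the receptor Unc5b (unc5B MUT, n = 3) or the point mutant named for neogenin (neo1 MUT, n = 3), or it was empty (control, n = 3). The labels do not give the mutated residues, the species of the netrin-1 sequence, whether a line was a clone or a pool, or whether libraries of the same group were separate cultures. The p-values here thus reflect how much these libraries varied, and that variation may be technical. The 3 control libraries served every transgene group, so a difference of the control cells from the rest appears in every comparison, and it cannot be told apart from a change shared by the transgenes.

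Netrin-1 is a secreted protein related to laminins that guides axons and also acts outside the nervous system. Its receptors include Dcc, neogenin and the Unc5 family. Unc5 receptors and Dcc are known as dependence receptors, which can trigger cell death when no ligand is bound. Mouse embryonic stem cells grown in serum and LIF are a mixture of cells, and some of them express genes of the primitive endoderm, the extraembryonic lineage that forms beside the pluripotent epiblast, or of a rare state resembling the embryo just after its first division. The embryonic stem cell markers Pou5f1, Sox2, Nanog, Esrrb, Zfp42 and Klf4 together took 2872 to 3088 CPM (counts scaled to library size) in the netrin-1 WT libraries, 2530 to 3173 CPM with unc5B MUT, 2055 to 2844 CPM with neo1 MUT and 2339 to 3084 CPM in control. Of 6 fibroblast and feeder markers 4 were below 1 CPM in every library, and the 6 together took 4.36 to 13.5 CPM in the transgene libraries and 7.79 to 18.0 CPM in control.

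A library held between 22256195 and 59735737 estimated counts in all. The libraries numbered 3 were the shallowest of their groups and had 3.92% to 4.28% of their counts on processed pseudogenes, against 2.08% to 2.41% in the others. The fit had the replicate number as a block, as planned. A difference within a number is that between a transgene library and the control library of the same number, on the log2 CPM scale. A gene is said to have risen or fallen where the Benjamini-Hochberg adjusted p of the edgeR quasi-likelihood test was under 0.05. Fold changes are log2 values ± SE from that fit, with transgene over control.

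Over the mean of the 3 transgenes, 316 of 21053 tested genes changed, or 1.50%. Of these 78 rose (0.370%) and 238 fell (1.13%), 42 and 146 of them at least 2-fold. Most of these changes were not shared evenly. Taken separately, 737 genes (3.50%) changed with netrin-1 WT, 367 higher (1.74%) and 370 lower (1.76%). With unc5B MUT 6 genes (0.0285%) changed, 5 higher (0.0237%) and 1 lower (0.00475%), and with neo1 MUT 1108 (5.26%), 414 higher (1.97%) and 694 lower (3.30%). Of the 316 genes, 262 were also called the same way with netrin-1 WT and 275 with neo1 MUT, but 5 with unc5B MUT. A test for differences among the 3 transgenes, with 2 degrees of freedom, called 1098 genes (5.22%), of which 189 were among the 316. In those 189 genes unc5B MUT had the fold change nearest to control in 34 of 44 that rose and 139 of 145 that fell. The other 127 genes, 34 higher and 93 lower, did not pass the test for differences, which does not show that the transgenes acted alike on them. The fit without the replicate block called 23 genes, 2 higher and 21 lower, all of them among the 316. The count rested on single libraries: it was 98 without control library 1, 95 without control library 2, 204 or 207 when netrin-1 WT library 1 or 2 was left out, and 186, 156 and 196 without unc5B MUT library 1, 2 or 3. Leaving out netrin-1 WT library 3 gave 939.

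Changes common to all 3 transgenes were few. Genes called in each of the 3 comparisons in the same direction numbered 5 higher (0.0237% of those tested) and 0 lower (0%). At an unadjusted p under 0.05 in each comparison these counts were 118 and 155, DESeq2 gave 17 and 30, and limma-voom 5 and 1. The 5 genes were Ntn1 itself, Magee2, and Dag1, Amt and Rhoa, which lie close together on chromosome 9. Each of the 5 had all 9 transgene libraries above all 3 control libraries, a separation seen upward in 0.323% of the tested genes and downward in 0.489%. It is no separate support, since the same libraries gave the calls. The 5 did not pass the test for differences among transgenes, with adjusted p = 0.637 for Ntn1, 0.476 for Magee2, 0.754 for Dag1, 0.116 for Amt and 0.895 for Rhoa (edgeR).

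**Figure D1:**
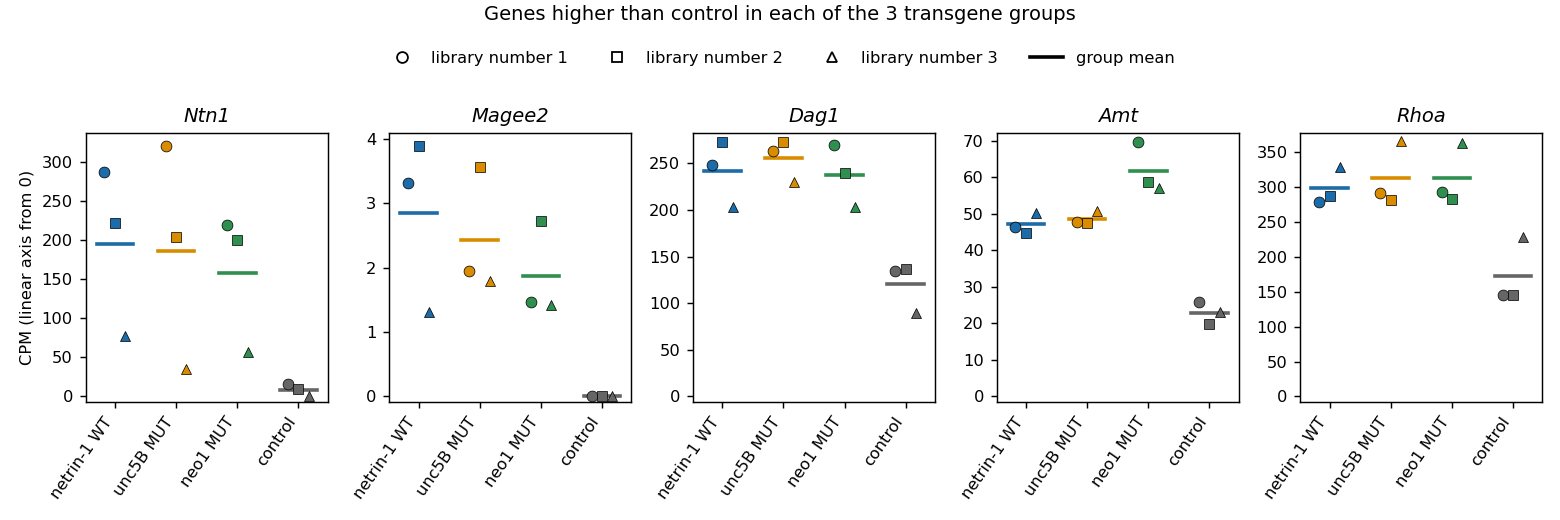
CPM of Ntn1, Magee2, Dag1, Amt and Rhoa in each library, on linear axes from 0, with netrin-1 WT, unc5B MUT, neo1 MUT and control from left to right; symbols give the library number and bars the group mean. In each panel the 9 transgene libraries lie above the 3 control libraries, and Magee2 is at 0 CPM in control.

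Ntn1 (ENSMUSG00000020902, chromosome 11, 68209364 to 68400823, minus strand, GRCm38) is the gene of the transgene. It was at 288, 223 and 76.9 CPM in netrin-1 WT libraries 1, 2 and 3, 322, 204 and 34.9 CPM with unc5B MUT, 219, 201 and 56.5 CPM with neo1 MUT, and 15.4, 9.09 and 0.782 CPM in control. In every group the library numbered 3 was the lowest, and the groups with a transgene did not overlap control. The differences within a number were 4.22, 4.61 and 6.52 for netrin-1 WT, 4.38, 4.48 and 5.38 for unc5B MUT, and 3.82, 4.46 and 6.08 for neo1 MUT. The mean fold change was 4.62 ± 0.34 (adjusted p = 0.000183, edgeR; 0.351 without the replicate block). Counts from the chromosomal gene and from the vector are not separated in these values.

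Magee2 (ENSMUSG00000031224, chromosome X, 104854952 to 104857267, minus strand) belongs to the MAGE family, several of whose members are expressed mainly in germ cells and tumors. It was at 3.32, 3.90 and 1.31 CPM in netrin-1 WT libraries 1, 2 and 3, 1.95, 3.57 and 1.79 CPM with unc5B MUT, 1.47, 2.72 and 1.42 CPM with neo1 MUT, and at 0 counts in all 3 control libraries. The transgene groups held 309, 318 and 200 counts over their 3 libraries. Taking 3 counts in all of control as the limit that a count of 0 allows, or 0.0286 CPM, the gene was at least 99.4-fold higher with netrin-1 WT, 85.2-fold with unc5B MUT and 65.4-fold with neo1 MUT. These bounds cover counting error only. In the list of Mage genes, 1 of 11 tested members was called in the mean of the transgenes, namely Magee2, where 1.50% of all tested genes were.

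Dag1, Amt and Rhoa fill most of a stretch from 108204634 to 108337934 on chromosome 9, in the order Dag1, Nicn1, Amt, Tcta and Rhoa. Dag1 (ENSMUSG00000039952, 108204634 to 108263958, minus strand) encodes dystroglycan, a receptor for laminins. Amt (ENSMUSG00000032607, 108296853 to 108302302, plus strand) encodes the aminomethyltransferase of the mitochondrial glycine cleavage system. Rhoa (ENSMUSG00000007815, 108306129 to 108337934, plus strand) encodes a small GTPase that controls the actin cytoskeleton. The 250 bases before each start site are shown because these genes moved together while their start regions differ in CG content; sequences are from RefSeq, build GRCm38.p6, on the strand of the gene, with CG dinucleotides in capitals. The windows are chr9:108263959-108264208 for Dag1 (minus strand), chr9:108296655-108296904 for Amt (plus strand), chr9:108305910-108306159 for Rhoa (plus strand) and chrX:104857268-104857517 for Magee2 (minus strand). The RefSeq start sites of Amt and Rhoa lie past the gene starts given above, so the ends of their windows fall inside those gene limits.
Dag1: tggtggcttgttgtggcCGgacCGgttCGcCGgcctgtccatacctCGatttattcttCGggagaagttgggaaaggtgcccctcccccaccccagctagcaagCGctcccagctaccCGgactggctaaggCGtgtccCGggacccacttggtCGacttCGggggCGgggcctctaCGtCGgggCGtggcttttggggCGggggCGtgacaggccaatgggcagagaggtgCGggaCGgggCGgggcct
Amt: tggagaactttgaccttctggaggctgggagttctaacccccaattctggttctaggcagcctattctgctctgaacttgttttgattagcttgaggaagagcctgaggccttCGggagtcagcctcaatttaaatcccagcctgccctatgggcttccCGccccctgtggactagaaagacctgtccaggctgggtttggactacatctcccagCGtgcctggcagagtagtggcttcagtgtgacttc
Rhoa: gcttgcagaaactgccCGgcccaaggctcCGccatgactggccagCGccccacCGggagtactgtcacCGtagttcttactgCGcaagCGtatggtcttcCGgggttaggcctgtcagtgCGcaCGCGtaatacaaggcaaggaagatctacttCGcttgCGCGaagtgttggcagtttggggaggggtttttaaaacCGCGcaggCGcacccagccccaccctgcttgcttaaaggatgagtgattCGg
Magee2: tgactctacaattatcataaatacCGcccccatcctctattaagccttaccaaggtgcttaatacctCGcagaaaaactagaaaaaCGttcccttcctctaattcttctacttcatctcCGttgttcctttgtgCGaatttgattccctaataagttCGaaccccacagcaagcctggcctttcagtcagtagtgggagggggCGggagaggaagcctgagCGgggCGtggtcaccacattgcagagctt
The Dag1 window holds 21 CG dinucleotides, that of Rhoa 18, that of Magee2 9 and that of Amt 3, where the median over 32841 mouse promoter windows of this length is 6. As many or more were held by 16.4% of the windows for Dag1, 21.7% for Rhoa, 40.3% for Magee2 and 71.0% for Amt. Searched on both strands, the motif GGGCGG occurred 3 times for Dag1, 2 times for Magee2, 1 time for Amt and 0 times for Rhoa, and in 32.8% of all windows. CCAAT occurred 1 time each for Dag1 and Amt and 0 times for Rhoa and Magee2, and in 33.9% of all windows. None of the 4 windows held TATAAA, which 12.4% of all windows did. The window of Nicn1, not printed here, held 12 CG dinucleotides, GGGCGG 1 time, CCAAT 2 times and TATAAA 1 time. A match describes the letters and shows no binding.

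Dag1 was at 248, 273 and 204 CPM in netrin-1 WT libraries 1, 2 and 3, 263, 273 and 230 CPM with unc5B MUT, 269, 239 and 203 CPM with neo1 MUT, and 135, 137.1 and 89.8 CPM in control. The lowest transgene library was above the highest control library. The mean fold change was 1.04 ± 0.09 (adjusted p = 0.000372, edgeR; 0.121 without the replicate block), with 1.02 with netrin-1 WT, 1.10 with unc5B MUT and 0.99 with neo1 MUT. Rhoa was at 278, 288 and 329 CPM with netrin-1 WT, 292, 282 and 367 CPM with unc5B MUT, 294, 282 and 363 CPM with neo1 MUT, and 146, 145 and 229 CPM in control. Here library 3 was the highest of each group, and its difference from control library 3 was the smallest, at 0.52, 0.68 and 0.67 against 0.93 to 1.01 within numbers 1 and 2. The mean fold change of Rhoa was 0.85 ± 0.09 (adjusted p = 0.00121, edgeR; 0.323 without the replicate block). Amt was at 46.4, 44.6 and 50.1 CPM with netrin-1 WT, 47.8, 47.5 and 50.7 CPM with unc5B MUT, 69.6, 58.8 and 56.9 CPM with neo1 MUT, and 25.8, 19.9 and 23.1 CPM in control. Amt was highest with neo1 MUT (1.43, against 1.04 with netrin-1 WT and 1.09 with unc5B MUT), and its mean fold change was 1.19 ± 0.11 (adjusted p = 0.000354, edgeR; 0.0204 without the replicate block).

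The genes between them had higher values too. Nicn1, which encodes a subunit of a tubulin polyglutamylase complex, was at 13.7, 17.2 and 6.20 CPM in netrin-1 WT libraries 1, 2 and 3, 17.5, 15.9 and 8.86 CPM with unc5B MUT, 17.8, 17.6 and 6.45 CPM with neo1 MUT, and 7.35, 6.41 and 4.58 CPM in control. Each transgene library was above the control library of its number, but netrin-1 WT library 3 was below control libraries 1 and 2. Nicn1 rose in the mean of the transgenes (1.07 ± 0.18, adjusted p = 0.0166, edgeR), but with unc5B MUT taken alone it did not pass (1.17, adjusted p = 0.203). Tcta was at 2.40 to 6 CPM over all libraries and had a mean fold change of 0.80 ± 0.19 that did not pass (adjusted p = 0.066). Tcta and Rhoa lie on opposite strands and share 32 bases at their starts, and the sources used here do not say whether strand was used in counting. Of 38 tested genes within 300 kb on either side of the stretch, 0 were called in the mean of the transgenes (4 higher and 1 lower before adjustment at 0.05; DESeq2 called 1 and limma-voom 0). Apeh, the nearest gene over 10 CPM before Dag1, had a mean fold change of 0.46 ± 0.14 (adjusted p = 0.136), and Gpx1, the nearest after Rhoa, -0.29 ± 0.12 (adjusted p = 0.343). With neo1 MUT taken alone, 2 genes before the stretch passed, Apeh (0.67, adjusted p = 0.0399, edgeR) and Rnf123 (0.76, adjusted p = 0.0378). In a list of 17 tested genes of this neighbourhood, drawn up by position with the earlier results known, 4 rose in the mean, all inside the stretch, and 7 rose with neo1 MUT. Of the 34 genes that rose and did not differ among the transgenes, 4 lay in the stretch. Of the lists that hold these genes, dystroglycan and its partners had 1 of 19 tested members higher (Dag1) and 1 lower (the laminin chain Lama1), and the glycine cleavage and serine synthesis enzymes 1 of 11 higher (Amt). Over all tested genes 0.370% rose and 1.13% fell in the mean, and 1.97% rose with neo1 MUT.

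**Figure D2:**
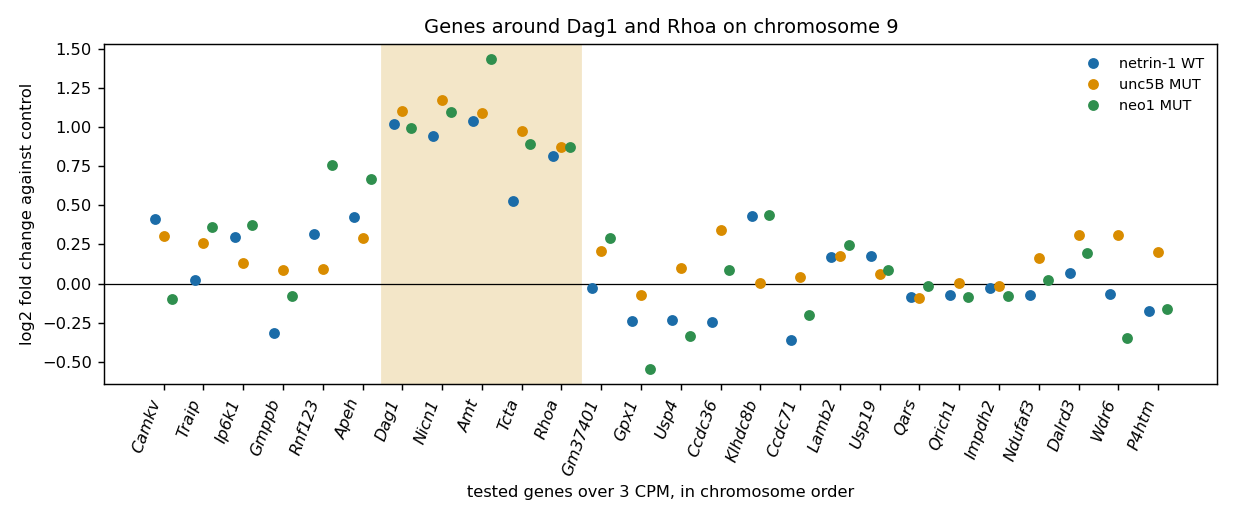
Log2 fold change against control of the tested genes over 3 CPM around Dag1 and Rhoa, in chromosome order and to no distance scale, with 1 point per transgene. The 5 genes of the shaded stretch, Dag1 to Rhoa, have values above 0 in all 3 transgenes, from 0.53 to 1.43.

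The common calls depended on which libraries were in the fit. Ntn1 and Magee2 were common to all 3 transgenes whichever of the 12 libraries was left out, Dag1 in 9 of the 12 cases, Amt in 7 and Rhoa in 4. The count of common genes was 2 without control library 1, 3 without control library 2, and 3, 2 and 2 without unc5B MUT library 1, 2 or 3. Leaving out netrin-1 WT library 3 gave 8. Without the replicate block it was 0. The authors' deposited table, made with a model that these sources do not describe, has 6 genes higher (Rhoa, Ntn1, Magee2, Nicn1, Amt and Dag1) and 3 lower (Amn, Uqcrfs1 and Ranbp9) at an adjusted p under 0.05 in all 3 comparisons. In the authors' deposited table Uqcrfs1 has log2 fold changes of -0.60, -0.63 and -0.59 and Ranbp9 -0.72, -0.72 and -0.62 with netrin-1 WT, unc5B MUT and then neo1 MUT.

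Uqcrfs1 and Ranbp9 lie in a part of chromosome 13 in which the median of the transcripts was lower with every transgene. This part was chosen after the values of all chromosomes were seen, so it is described without a test. Among 382 windows of 5 Mb with at least 8 genes over 10 CPM, 3 had medians of all 3 transgenes beyond 0.4 in the same direction, and these 3 adjoin on chromosome 13 from 30 to 45 Mb. Beyond 0.2 there were 4, with chromosome 14 from 25 to 30 Mb added (-0.36 with netrin-1 WT, -0.26 with unc5B MUT and -0.24 with neo1 MUT). The adjoining window from 30 to 35 Mb had -0.29, -0.255 and -0.17 in the same order. On chromosome 13 the median log2 fold changes from 30 to 35 Mb were -0.49 with netrin-1 WT, -0.55 with unc5B MUT and -0.60 with neo1 MUT. They were -0.55, -0.45 and -0.44 from 35 to 40 Mb, and -0.62, -0.57 and -0.45 from 40 to 45 Mb. In the stretch from 25 to 45 Mb, 19 of 114 tested genes fell and 0 rose in the mean of the transgenes (at an unadjusted p under 0.05, 37 fell and 0 rose; DESeq2 called 33 lower and 0 higher, limma-voom 26 and 0). The share of genes that fell is 1.13% over all tested genes. In the fit without the replicate block none of the chromosome 13 genes named here passed (adjusted p from 0.323 to 1).

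The median was below 0 in all 3 transgenes and all 3 numbers. Over the 43 genes of the stretch with more than 10 CPM the median fold change was -0.50, with quartiles of -0.59 and -0.31. The 9478 other genes over 10 CPM had a median of -0.015 and quartiles of -0.14 and 0.11. By transgene the median of the stretch was -0.53 with netrin-1 WT, -0.50 with unc5B MUT and -0.45 with neo1 MUT. Against the control library of the same number it was -0.48, -0.53 and -0.58 in netrin-1 WT libraries 1, 2 and 3, -0.53, -0.55 and -0.47 with unc5B MUT and -0.40, -0.48 and -0.48 with neo1 MUT, while the median of the other genes stayed between -0.052 and 0.053. Of the 43 genes 24, or 55.8%, were below control in 9 of 9 within-number differences, against 3.61% of the other genes. Of the 43, 2 differed among the transgenes, and of the other genes 638 of 9478 did, a like share. Since all differences use the same control libraries, a higher level of this stretch in the control cells and a lower level in all 3 transgene lines cannot be told apart. DESeq2 called 30 genes lower in all 3 comparisons, and 17 of these lay on chromosome 13 between 20 and 50 Mb. This rests on DESeq2, since the main edgeR fit called 0 genes lower in all 3. With limma-voom there was 1, and 0 in that interval. Without unc5B MUT, 84 genes were lower in both other groups, 5 of them in that interval. Of the 93 genes that fell in the mean and did not differ among transgenes, 26 lay there. That interval is wider than the stretch. The whole of chromosome 13 held 28 of the 93, and 971 of the 21053 tested genes.

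**Figure D3:**
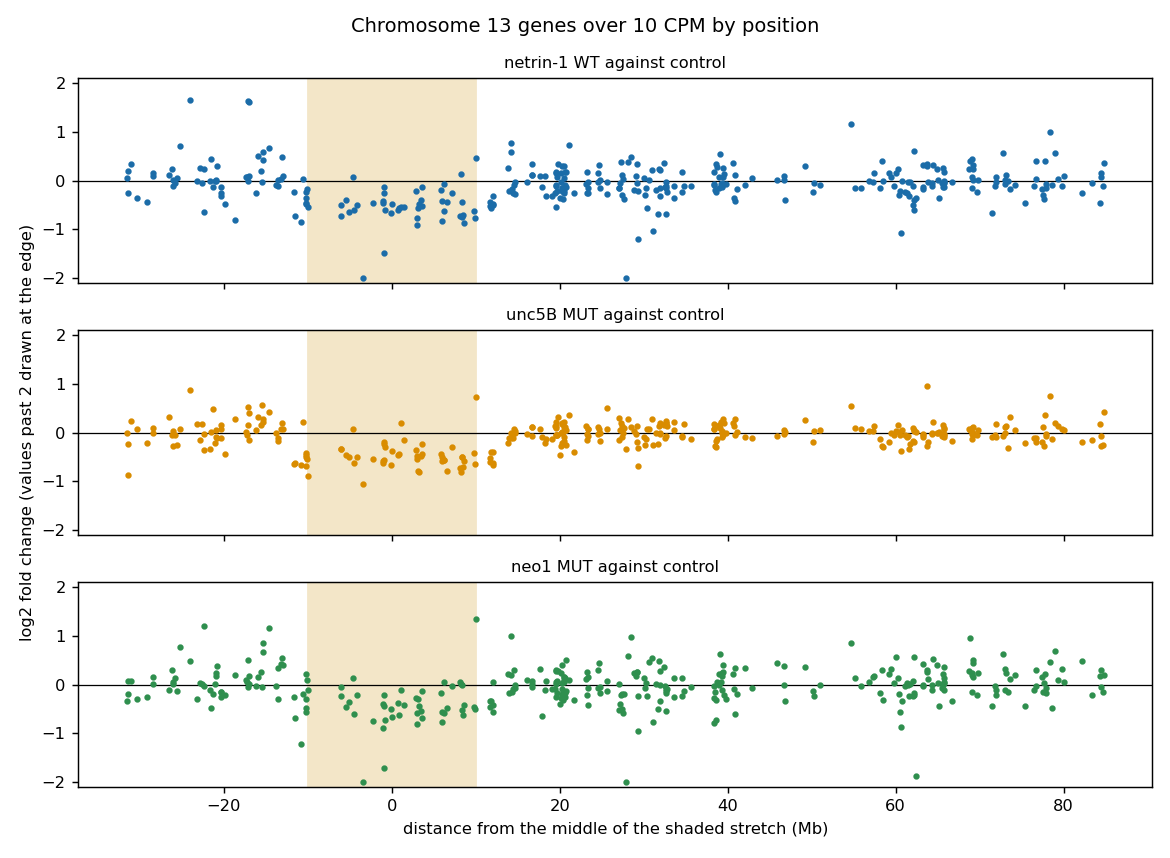
Log2 fold change against control of chromosome 13 genes over 10 CPM, with netrin-1 WT, unc5B MUT and then neo1 MUT from top to bottom, against the distance in Mb from the middle of the shaded stretch, which runs from 25 to 45 Mb. In the stretch the medians are -0.53, -0.50 and -0.45.

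Uqcrfs1 (30540308 to 30545362) encodes the Rieske iron-sulfur subunit of respiratory complex III. It was at 106, 103 and 72.3 CPM in netrin-1 WT libraries 1, 2 and 3, 102, 98.5 and 77.8 CPM with unc5B MUT, 98.3, 116 and 71.1 CPM with neo1 MUT, and 161, 152 and 115 CPM in control. The 9 libraries were each below the control library of their number (mean fold change -0.61 ± 0.08, adjusted p = 0.00405, edgeR). Ranbp9 (43402675 to 43481282), a Ran-binding scaffold protein of an E3 ubiquitin ligase complex, was at 35.3, 35.7 and 52.1 CPM with netrin-1 WT, 36.6, 34.9 and 51.7 CPM with unc5B MUT, 41.6, 39.6 and 46.7 CPM with neo1 MUT, and 66.0, 56.1 and 77.7 CPM in control. All transgene libraries were below all control libraries (-0.68 ± 0.09, adjusted p = 0.00408, edgeR). Ssr1, a subunit of the translocon-associated protein complex of the endoplasmic reticulum, was at 167, 186 and 143 CPM with netrin-1 WT, 228, 194 and 166 CPM with unc5B MUT, 208, 134 and 148 CPM with neo1 MUT, and 262, 268 and 315 CPM in control (-0.71 ± 0.13, adjusted p = 0.0238, edgeR). With 1 library left out, Ssr1 lost its call in 6 of 12 fits and Uqcrfs1 and Ranbp9 in 1 each. Prpf4b, a kinase of pre-mRNA splicing, fell by 0.61, Nol7, a nucleolar protein, by 0.59, Dtnbp1, a subunit of the lysosome-related organelle complex BLOC-1, by 0.63, Cdyl, a chromodomain corepressor, by 0.48 and Txndc5, a protein disulfide isomerase of the endoplasmic reticulum, by 0.48. Txndc5 lost its call in 11 and Prpf4b in 6 of the 12 fits with 1 library left out. Jarid2, a cofactor of Polycomb repressive complex 2 with a role in embryonic stem cell differentiation, had -0.50 ± 0.16 and did not pass (adjusted p = 0.169). It was at 402, 373 and 420 CPM with netrin-1 WT, 470, 462 and 448 CPM with unc5B MUT, 510, 384 and 458 CPM with neo1 MUT, and 692, 782 and 397 CPM in control, so that control library 3 lay among the transgene libraries. E2f3, a transcription factor of the cell cycle, had -0.50 ± 0.15 (adjusted p = 0.159).

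Beyond the stretch the medians were nearer to 0, at -0.17, -0.41 and -0.11 with netrin-1 WT, unc5B MUT and then neo1 MUT from 20 to 25 Mb, and at -0.24, -0.11 and -0.08 from 45 to 50 Mb. These medians do not mark an edge, since lower values ran past both limits of the stretch. In the same order, the gene at 23.42 Mb had -0.73, -0.63 and -0.68, and that at 24.15 Mb -0.85, -0.66 and -1.22. Nearer the stretch, the gene at 24.40 Mb had 0.04, 0.21 and -0.18. Genes over 10 CPM from 46.67 to 47.10 Mb had -0.33 to -0.67, apart from a value of 0.06 with neo1 MUT. The next, at 48.84 Mb, had 0.25, -0.22 and 0.22. Gmnn (24751845 to 24761923), which encodes geminin, an inhibitor of DNA replication licensing, was at 116, 107 and 144 CPM in netrin-1 WT libraries 1, 2 and 3, 109, 103 and 145 CPM with unc5B MUT, 102, 103 and 134 CPM with neo1 MUT, and 158, 150 and 197 CPM in control (-0.51 ± 0.07, adjusted p = 0.00434, edgeR). Nup153, a nuclear pore protein (46679905 to 46727940), was at 191, 202 and 383 CPM with netrin-1 WT, 208, 202 and 350 CPM with unc5B MUT, 203, 198 and 419 CPM with neo1 MUT, and 304, 284 and 502 CPM in control (-0.50 ± 0.08, adjusted p = 0.0111, edgeR). Both were lower within each of the 3 numbers in all 3 transgene groups. Dek, a chromatin protein (47084775 to 47106201), fell by 0.44 and its neighbour Kdm1b, a histone H3 demethylase, by 0.52, with the calls lost in 9 and 8 of the 12 fits with 1 library left out. These chromosome 13 genes were chosen after their values were seen.

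Primitive endoderm genes made up the list with the most members called, and the list median was below 0 in all 3 transgene groups. Of 22 tested members 16 fell and 0 rose in the mean of the transgenes (0 higher also at an unadjusted p under 0.05, by DESeq2 and by limma-voom), where 1.13% of all tested genes fell. Of the 22, 16 differed among the transgenes, as did 5.22% of all tested genes. Taken alone, netrin-1 WT had 16 members lower, unc5B MUT 0 and neo1 MUT 17, where 1.76%, 0.00475% and 3.30% of all tested genes fell. Without the replicate block 5 members passed, where 23 of 21053 tested genes did. The median fold change of the list was -2.09 with netrin-1 WT, -0.52 with unc5B MUT and -1.85 with neo1 MUT, where all tested genes had 0.007, 0.016 and 0.015. Within numbers 1, 2 and 3 the list medians were -2.26, -1.73 and -1.85 with netrin-1 WT, -0.46, -0.615 and -0.43 with unc5B MUT, and -1.75, -1.81 and -2.73 with neo1 MUT. The 6 marker genes used to check for this cell type summed to 41.2 to 51.5 CPM with netrin-1 WT, 192 to 243 CPM with unc5B MUT, 27.7 to 81.2 CPM with neo1 MUT and 341 to 430 CPM in control, and their part in the other results was not tested. In bulk RNA, fewer cells of this kind and less of these transcripts per cell cannot be told apart.

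Among the transcription factors of the lineage, Gata6 was at 11.9, 10.8 and 17.1 CPM in netrin-1 WT libraries 1, 2 and 3, 50.7, 39.1 and 40.0 CPM with unc5B MUT, 16.7, 13.8 and 10.3 CPM with neo1 MUT, and 78.4, 59.7 and 50.3 CPM in control. The unc5B MUT and control libraries overlapped, and the other groups did not overlap control. Gata6 fell in the mean by 1.65 (SE 0.16, adjusted p = 0.000522, edgeR), Gata4 by 1.80, Sox17 by 2.40 and Foxa2 by 2.20. Of the endocytic receptor complex of this tissue, Cubn, the receptor cubilin, was at 11.0, 11.3 and 4.75 CPM with netrin-1 WT, 53.5, 65.0 and 36.3 CPM with unc5B MUT, 23.7, 21.2 and 4.09 CPM with neo1 MUT, and 132, 144 and 100 CPM in control. Its partner Amn was at 2.31, 2.15 and 1.99 CPM with netrin-1 WT, 7.51, 7.27 and 9.83 CPM with unc5B MUT, 4.83, 4.55 and 5.25 CPM with neo1 MUT, and 17.3, 16.1 and 18.5 CPM in control. For both genes every transgene library, unc5B MUT included, was below every control library. Amn had the smallest spread of these genes (mean fold change -1.97 ± 0.13, adjusted p = 9.01e-05, edgeR; 0.00244 without the replicate block), and its value with unc5B MUT alone was -1.09 (adjusted p = 0.137). The adaptor Dab2 fell by 2.70 and the receptor tyrosine kinase gene Pdgfra by 1.82 in the mean. Pdgfra had -2.51, -0.36 and -2.60 with netrin-1 WT, unc5B MUT and then neo1 MUT. In the list of basement membrane genes 4 of 12 fell (0 without the replicate block), against 1.13% of all tested genes. All 4 also stand in the primitive endoderm list: the laminin chains Lama1 (-1.26 ± 0.17) and Lamb1 (-1.40 ± 0.28) and the collagen IV chains Col4a1 (-1.11 ± 0.17) and Col4a2 (-1.60 ± 0.14). Lamb1 lost its call in 9 of the 12 fits with 1 library left out.

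**Figure D4:**
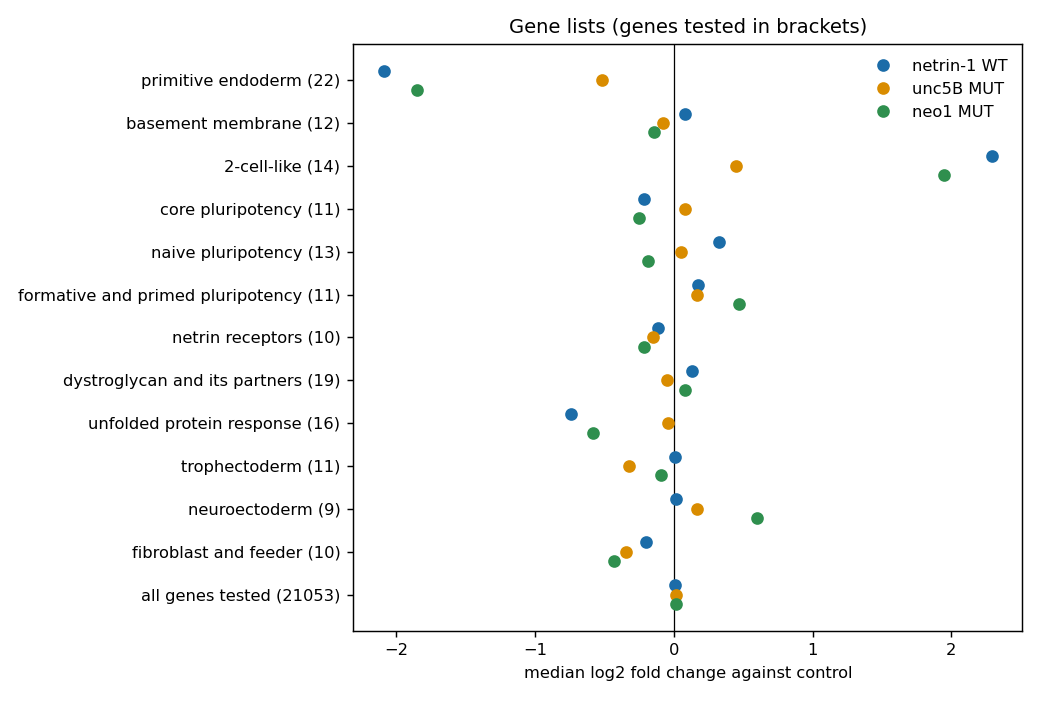
Median log2 fold change against control of 12 gene lists and of all tested genes, with 1 point per transgene and the number of genes tested in brackets. Primitive endoderm has medians of -2.09, -0.52 and -1.85 with netrin-1 WT, unc5B MUT and then neo1 MUT, and all tested genes lie within 0.02 of 0.

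Of 14 tested genes of the 2-cell-like state, named after the embryo after its first division, 3 rose in the mean of the transgenes: Zscan4d (1.81 ± 0.35), Zscan4e (1.86 ± 0.31) and Zscan4a (1.82 ± 0.38), members of a family of transcripts that marks this state and protects telomeres. The list median was 2.29 with netrin-1 WT, 0.45 with unc5B MUT and 1.95 with neo1 MUT, and 3 of the 14 differed among the transgenes. Over all tested genes, 0.370% rose in the mean and 5.22% differed among the transgenes. Zscan4e was at 8.56, 8.25 and 3.73 CPM in netrin-1 WT libraries 1, 2 and 3, 2.14, 2.11 and 0.38 CPM with unc5B MUT, 11.7, 10.4 and 1.63 CPM with neo1 MUT, and 2.08, 1.22 and 0.391 CPM in control. The unc5B MUT and control libraries overlapped, and none of the 14 passed without the replicate block. These genes are near-identical copies, so the share of reads that each received is uncertain. The count was 0 without control library 1 or 2, 1 without control library 3, netrin-1 WT library 1, neo1 MUT library 1 or 2, or any unc5B MUT library, 2 without netrin-1 WT library 2, 5 without netrin-1 WT library 3 and 6 without neo1 MUT library 3.

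Over all tested genes 1.50% were called in the mean. Each list of the netrin pathway and of pluripotency is small and had at most 1 member called. Of 10 tested receptors and receptor partners 0 were called in the mean of the transgenes by edgeR, also at an unadjusted p under 0.05, and 0 by DESeq2 and limma-voom. Neo1 had a mean fold change of 0.02 ± 0.10 (adjusted p = 0.972) and Unc5b -0.12 ± 0.13 (adjusted p = 0.769); both signs turned in some fits with a library left out. Counts of Dcc were too low for it to be tested. Of 15 receptor effectors, among them Src, Fyn and Rac1, 1 was called, Rhoa. Of 11 core pluripotency genes 0 were called (1 higher and 3 lower before adjustment at 0.05; DESeq2 called 1 higher and limma-voom 0). Pou5f1 had -0.06 ± 0.07 (adjusted p = 0.791), Sox2 0.39 ± 0.11 (0.133), Nanog 0.20 ± 0.24 (0.784), Esrrb 0.23 ± 0.13 (0.491) and Klf4 -0.04 ± 0.17 (0.958). The signs of Nanog and Klf4 also turned in fits with a library left out. Of 13 naive pluripotency genes 1 rose, Tcl1, a coactivator of the kinase Akt (0.45 ± 0.10, adjusted p = 0.0482, edgeR). That call was lost in 11 of the 12 fits with 1 library left out and with RLE size factors (adjusted p = 0.0523). Strada, the pseudokinase partner of the kinase LKB1, had 0.26 with netrin-1 WT, -0.95 with unc5B MUT and 0.28 with neo1 MUT, and its mean fold change of -0.13 ± 0.10 did not pass (adjusted p = 0.62).

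The remaining lists had at most 1 member called in each direction in the mean, apart from the Y-linked genes and the chromosome 9 neighbourhood described above. Of 12 integrins 0 were called (2 higher and 3 lower before adjustment at 0.05; DESeq2 called 2 and 3, limma-voom 1 and 1). Of 16 apoptosis genes 0 were called (1 higher and 0 lower before adjustment at 0.05; DESeq2 called 1 higher and limma-voom 0). The unfolded protein response list names 15 genes, which matched 16 tested gene IDs. Of these IDs 0 were called (8 lower before adjustment at 0.05, while DESeq2 called 4 lower and limma-voom 0). Taken alone, netrin-1 WT had 3 lower, unc5B MUT 0 and neo1 MUT 2, where 1.76%, 0.00475% and 3.30% of all tested genes fell. Of the single members called, the receptor tyrosine kinase gene Kit rose by 0.71 ± 0.09 on the log2 scale, the LIF receptor Lifr fell by 0.46, the ERK feedback inhibitor Spry2 by 0.47, the cholesterol synthesis enzyme Sqle by 0.53, the AMP-activated kinase subunit Prkag1 by 0.57, the transcription factor Runx1 by 1.53, the Wnt antagonist Dkk1 by 2.5 and the imprinted transcript H19 by 1.60. None of these 8 was called without the replicate block (adjusted p from 0.121 to 1). With 1 library left out, Spry2 and Prkag1 lost the call in 10 of 12 fits, Lifr in 4, Runx1 in 3 and Sqle in 1. Lifr, Spry2, Sqle and Prkag1 also lost it without netrin-1 WT and without neo1 MUT. Lifr, Sqle, Prkag1 and Dab2 lie on chromosome 15, of which 26 of 805 tested genes fell (3.23%, against 1.13% of all tested genes). The 400 genes of that chromosome over 10 CPM had medians of -0.34 with netrin-1 WT, 0.04 with unc5B MUT and -0.44 with neo1 MUT. Cyclin A2 (Ccna2, 0.44 ± 0.09) and the p53 target Zmat3 (0.43 ± 0.09) rose in the mean, with 1.01 and 0.94 with netrin-1 WT against 0.22 and 0.22 with unc5B MUT and 0.10 and 0.13 with neo1 MUT. Ccna2 lost the call in 9 and Zmat3 in 11 of the 12 fits with 1 library left out, and both lost it without the replicate block and without netrin-1 WT. Both lie on chromosome 3. From 5 to 55 Mb that chromosome held 21 of the 78 genes that rose. They were among 235 tested there, where 0.370% of all tested genes rose. The 96 genes of that part over 10 CPM had medians of 0.92 with netrin-1 WT, 0.19 with unc5B MUT and 0.11 with neo1 MUT.

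The Y-linked genes show how a mean over the transgenes can rest on 1 of them. Of 7 tested members 5 fell in the mean, against 1.13% of all tested genes. The list medians were -0.004 with netrin-1 WT, -0.24 with unc5B MUT and -6.64 with neo1 MUT. Ddx3y, an RNA helicase, was at 74.4, 82.3 and 30.7 CPM in netrin-1 WT libraries 1, 2 and 3, 89.4, 92.8 and 40.0 CPM with unc5B MUT, 0.726, 0.445 and 0.367 CPM with neo1 MUT, and 107, 95.6 and 49.4 CPM in control. Eif2s3y, a subunit of a translation initiation factor, was at 52.5, 56.2 and 58.6 CPM with netrin-1 WT, 67.7, 62.4 and 82.4 CPM with unc5B MUT, 0.406, 0.157 and 0.105 CPM with neo1 MUT, and 77.7, 66.6 and 96.3 CPM in control. The histone demethylase Uty and the zinc finger gene Zfy1 had the same pattern, and the 4 genes differed among the transgenes. Neither Ddx3y nor Eif2s3y was called with netrin-1 WT (adjusted p = 0.0993 and 0.171) or unc5B MUT (1 and 1).

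The genes with the largest change in their weakest transgene show both patterns. Among those that rose were Dnajc6, the clathrin uncoating cofactor auxilin (1.49 ± 0.20), the scaffold protein Mpdz (1.45 ± 0.26), Ccdc136 (1.43 ± 0.30), the sialyltransferase St8sia1 (1.11 ± 0.15), the volume-regulated anion channel subunit Lrrc8d (0.998 ± 0.13), the semaphorin receptor Nrp2 (1.32 ± 0.24) and the neuronal pentraxin receptor Nptxr (0.82 ± 0.16). Lrrc8d was at 45, 38.9 and 60.9 CPM in netrin-1 WT libraries 1, 2 and 3, 61.3, 46.4 and 68.2 CPM with unc5B MUT, 61.8, 73.9 and 72.7 CPM with neo1 MUT, and 23.8, 27.0 and 37.4 CPM in control. Its transgene libraries were all above its control libraries, and unc5B MUT (1.01) stood between netrin-1 WT (0.72) and neo1 MUT (1.27). Dnajc6 was at 43.4, 44.0 and 19.5 CPM with netrin-1 WT, 20.4, 20.6 and 18.2 CPM with unc5B MUT, 53, 45.5 and 20.8 CPM with neo1 MUT, and 14.8, 13.2 and 5.58 CPM in control. St8sia1 was the member of these 7 that differed among the transgenes (adjusted p = 0.0386), with 1.58 with netrin-1 WT, 0.78 with unc5B MUT and 0.97 with neo1 MUT. Lrrc34 (1.29 ± 0.18), the carbonic anhydrase Car13 (1.22 ± 0.24) and the germ-cell transcription factor Sohlh2 (1.13 ± 0.16), all on chromosome 3, and the lactate dehydrogenase subunit Ldhb (1.23 ± 0.26) were among the 10 largest increases of the mean and differed among the transgenes. With 1 library left out, the call was lost in 11 of 12 fits for Ldhb, 10 for Ccdc136, 9 for Nptxr, 7 for Car13, 4 for Mpdz and 3 for Nrp2.

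Among those that fell, Dok2, an adaptor of tyrosine kinase signaling, the secreted enzyme Pm20d1, the kinase Lrrk1 and the ephrin ligand Efnb1 did not differ among the transgenes. Pm20d1 was at 4.28, 4.64 and 11.7 CPM in netrin-1 WT libraries 1, 2 and 3, 3.65, 6.05 and 9.56 CPM with unc5B MUT, 4.29, 9.99 and 7.29 CPM with neo1 MUT, and 6.57, 24.8 and 36.0 CPM in control. Control library 1 lay within the range of the transgene libraries, and the mean fold change was -1.54 ± 0.26 (adjusted p = 0.0143, edgeR). Dok2 was at 2.39, 3.23 and 1.21 CPM with netrin-1 WT, 3.49, 4.16 and 1.57 CPM with unc5B MUT, 2.33, 3.82 and 1.05 CPM with neo1 MUT, and 5.75, 7.61 and 9.99 CPM in control (-1.76 ± 0.31, adjusted p = 0.0195, edgeR). All its transgene libraries were below all its control libraries. Efnb1 (-1.43 ± 0.30) and Lrrk1 (-1.79 ± 0.27) separated in the same way at 7.50 CPM or less. Efnb1 lost its call in 10 of the 12 fits with 1 library left out, Pm20d1 in 3 and Dok2 in 2. The genes Nxf7, Clic6, Myo7a, Hkdc1, Habp2, Nostrin and Aqp8 had mean fold changes of -2.36 to -3.28 and differed among the transgenes, each with its smallest change with unc5B MUT. Nxf7, an X-linked member of the RNA export factor family, was at 0.689, 0.583 and 0.678 CPM with netrin-1 WT, 4.15, 4.27 and 4.56 CPM with unc5B MUT, 0.897, 1.05 and 0.157 CPM with neo1 MUT, and 9.10, 11.3 and 16.9 CPM in control. The unc5B MUT libraries lay between the other transgenes and control without overlap. Clic6, a chloride channel protein, was at 1.48, 2.20 and 1.26 CPM with netrin-1 WT, 7.75, 11.6 and 5.81 CPM with unc5B MUT, 4.93, 2.85 and 1.42 CPM with neo1 MUT, and 18.6, 25.4 and 22.5 CPM in control.

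**Figure D5:**
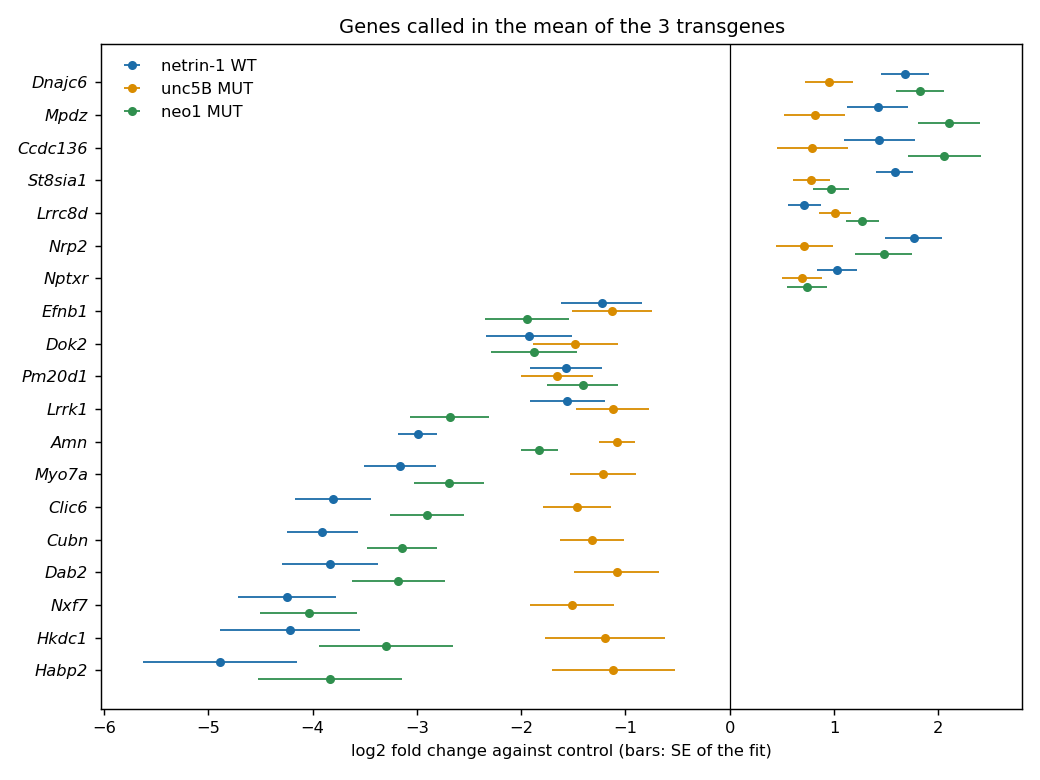
Log2 fold change against control of 19 genes called in the mean of the transgenes, chosen by their weakest transgene, with netrin-1 WT, unc5B MUT and then neo1 MUT from top to bottom within each gene and bars for the SE of the fit. For the lowest genes of the plot, such as Habp2 and Nxf7, unc5B MUT lies nearer to 0 (-1.12 and -1.52) than the other transgenes.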

How the data were processed

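Total RNA was column-purified and sequenced with Illumina libraries, per the labels' protocols. The values used are the authors' deposited estimated counts per Ensembl gene, which need not be whole, and were rounded here. They had been taken for plain counts when the tests were planned, and the test stayed as planned. Per the submitters' processing notes, the tools were STAR 2.5.2b, Bowtie2, Bowtie, DESeq2, FastQC 0.11.5 and R 3.3.2, with roles not given. The counting program and its strand setting are not given in the sources used here. The authors' deposited log2 fold changes and adjusted p-values served only for the comparison named as theirs. Gene positions were taken from GENCODE for GRCm38, in which 52566 of 52661 IDs matched.

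Genes were filtered by expression and tested in R 4.3.3 with edgeR 4.0.16 (TMM factors, quasi-likelihood F-test), in 1 fit of all 12 libraries with group and replicate number as terms, adjusted over 21053 genes at 0.05. CPM use TMM sizes, and log2 CPM differences within a number have a prior count of 2. The block rests on the data: deviations from group means correlated at 0.58 to 0.881 over the 18 same-number pairs (minimum set at 0.1), at 0.492 to 0.758 between numbers 1 and 2, and at -0.827 to -0.597 between number 3 and the others. What a replicate number marks is not in the labels. Alternatives were no block, RLE factors, other filters, DESeq2 1.42.0, limma-voom 3.58.1, a threshold of 0.01, and leaving out libraries or groups. The comparison and the 41 gene lists were chosen with earlier results of these data known. The result of 1 list is not reported here.

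Named were all common genes, then genes called in the mean with at least 5 CPM and all 9 within-number differences of one sign, as the 12 each way with the largest smallest-of-3 change and the 10 each way with the largest mean change. To these came 16 preset genes, among them receptors and pluripotency factors, and the first 4 called members of each list at 1 CPM or more. Chromosome 13 genes and Tcta fall outside this rule and were chosen after their values were seen. The scripts were tested on simulated data.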

Additional observations from a re-analysis of the deposited data

Results flagged for a closer look

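Of the 316 genes called in the mean of the 3 transgenes, 189 also passed the edgeR test for differences among the transgenes, so for these the mean stands for unequal changes. The adjusted p of that difference is given here for the 38 of them named in the text. Groups of 3 libraries are too small to be screened for outlying libraries.

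For primitive endoderm genes it was 0.00122 for Amn, 0.00301 for Cubn, 0.00832 for Dab2, 0.00169 for Gata6, 0.0146 for Gata4, 0.00139 for Sox17, 0.0167 for Foxa2, 0.00072 for Pdgfra, 0.0138 for Lama1, 0.00902 for Col4a1 and 0.00123 for Col4a2. Of these 11 genes, all had their smallest change in unc5B MUT. For other genes that fell most it was 0.0072 for Nxf7, 0.00861 for Clic6, 0.0128 for Myo7a, 0.0332 for Hkdc1, 0.0176 for Habp2, 0.000503 for Nostrin, 0.0118 for Aqp8, 0.000295 for Dkk1, 0.0321 for Runx1 and 0.00279 for H19. These 10 also had their smallest change in unc5B MUT. For the Y-linked genes, which were near 0 CPM in neo1 MUT, it was 1.2e-07 for Ddx3y, 6.59e-07 for Eif2s3y, 0.000105 for Uty and 4.23e-05 for Zfy1.

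Among the genes that rose, the chromosome 3 genes, with their largest change in netrin-1 WT, had 0.00788 for Car13, 0.00167 for Ccna2, 0.00257 for Lrrc34, 0.00212 for Sohlh2 and 0.00337 for Zmat3. The others had 0.0192 for Kit, 0.0159 for Ldhb, 0.0386 for St8sia1, 0.0246 for Zscan4d and 0.00707 for Zscan4e. Among smaller decreases the values were 0.0217 for Prkag1, 0.0371 for Spry2 and 0.00769 for Sqle.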

How the results depend on the processing

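The chromosome 13 median kept its sign in every setting run, and Ntn1 and Magee2 stayed common to all 3 transgenes with any library left out; most counts moved. In the order of changed genes (higher, lower), common genes (higher, lower), genes differing among transgenes, and those of them also changed in the mean, the values were as follows. Without the replicate block they were 23 (2, 21), 0 (0, 0), 22 and 7. With no filter beyond 1 count, 476 (130, 346), 11 (8, 3), 1665 and 292. With DESeq2, 1035 (430, 605), 47 (17, 30), 2906 and 667. With limma-voom, 533 (175, 358), common genes (5, 1), 1834 and 340. At a threshold of 0.01, 116 (19, 97), 3 (3, 0), 246 and 56. Without the libraries numbered 3, 1424 (448, 976), 10 (7, 3), 3139 and 1017. With a transgene group left out, common means shared by the other 2, which the difference test also compares. Without netrin-1 WT, 187 (36, 151) and 3 (3, 0) common, with the counts of differing genes not given here. Without unc5B MUT, 125 higher, 111 (27, 84) common, 147 and 38, with the total and the lower count of changed genes not given here. Without neo1 MUT, 134 (47, 87), 3 (3, 0), 266 and 85. What moved the counts was not tested. Fits that leave some libraries out also rest on fewer libraries, and their counts moved both up and down. Leaving out 1 library gave 95 to 939 changed genes, 12 to 330 higher, 75 to 609 lower, 2 to 8 common, 2 to 7 common higher, 0 to 1 common lower, 257 to 2446 differing, 63 to 639 of these changed in the mean, and a chromosome 13 median of -0.523 to -0.459.

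Of the 81 genes named, 70 were called, 27 of them with any library left out and 11 in all other settings. Signs turned for genes that were not called. With 1 library left out, Klf4 ran from -0.2675 to 0.1805, Neo1 from -0.05752 to 0.1016, Unc5b from -0.2212 to 0.04595 and Nanog from -0.04508 to 0.3899. Klf4 was 0.08154 without the replicate block and 0.1368 without neo1 MUT. Without the libraries numbered 3, Nanog was -0.06695 and Unc5b 0.04266. Without netrin-1 WT, Nanog was -0.05128, Neo1 -0.05861 and Pou5f1 0.001677. Strada was 0.2578 without unc5B MUT. Genes near the filter rest on few counts.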
